A study of Mus musculus with 16 samples.

Results

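The 9 genes described here encode proteins of lipoprotein particles, sterol efflux, lipid uptake and lipid storage, namely Apoe, Clu, Apod, Abca1, Abcg1, Lrp1, Lpl, Plin2 and Elovl1. They were taken by symbol, and all 9 were found among the 16707 genes of the deposited log2 CPM table. All 9 were also among the 16066 genes that passed the filter on low counts and were tested. Poly-A RNA of primary mouse astrocytes was sequenced in 16 libraries. The cells were selected with beads against ACSA-2, an astrocyte surface antigen, from the brains of pups labelled as P6 and kept in serum-free medium with heparin-binding EGF for about 10 days. The results text of the study gives a younger age for the pups. Cultures came from 4 litters of wild-type C57BL6J mice (WT) and 4 litters of Nlrx1-/- mice (KO), which lack the mitochondrial innate immune regulator NLRX1. Of each litter, a well received vehicle (water) and another received 500 ng/mL lipopolysaccharide (LPS) with 10 ng/mL interferon gamma (IFNγ), both for 24 h, which gave 4 litters in each of 4 conditions. Each litter had 1 genotype, so litter and genotype cannot be told apart except through the spread between litters, and the part of Nlrx1 removed in the mice is not given in the sources used here. The comparisons address how reactive astrocytes differ from resting ones and whether Nlrx1 changes that difference.

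Astrocytes supply the lipoproteins of the brain. Apolipoprotein E and clusterin (apolipoprotein J) are their main protein components, ABCA1 and ABCG1 load them with cholesterol and phospholipid, and endocytic receptors such as LRP1 take them up. The genes of this pathway are in part under the control of the liver X receptors, which sense oxysterols. Cells that take up or make more fatty acid than they use store it in droplets coated by perilipins, and ELOVL1 lengthens saturated fatty acids that are already very long.

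On GRCm39 (GENCODE M39) Abca1, Plin2 and Elovl1 lie on chromosome 4, Abca1 from 53030787 to 53159900, Plin2 from 86565912 to 86588459 and Elovl1 from 118284346 to 118290150. Apoe lies on chromosome 7 from 19430034 to 19434947, Lpl on chromosome 8 from 69284603 to 69360100 and Lrp1 on chromosome 10 from 127374012 to 127457017. Clu lies on chromosome 14 from 66190200 to 66218999, Apod on chromosome 16 from 31115010 to 31135355 and Abcg1 on chromosome 17 from 31276649 to 31336969. Abca1, Plin2, Apoe, Lrp1 and Apod are on the minus strand and the others are on the plus strand.

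Promoter sequence was available from RefSeq on GRCm38.p6 for 6 of the 9 genes, Apoe, Apod, Abca1, Lrp1, Plin2 and Elovl1. The 250 bases before each start were searched on both strands for the nuclear receptor half-site AGGTCA, the interferon gamma activated site TTCNNNGAA, the interferon response core (GAAA, any 2 bases, GAAA) and, by its name, the NF-κB consensus, because nuclear receptors, factors that act after interferon and NF-κB bind such letters. The sequences of the 3 genes that rose in WT astrocytes and of Abca1, which fell, are shown 5′ to 3′ on the strand of the gene, with matches in capitals, and bases that GENCODE places inside the transcript are left out. Plin2 is shown at chr4:86670223-86670309 (minus strand), Elovl1 at chr4:118427843-118427993 (plus strand), Lrp1 at chr10:127621149-127621398 (minus strand) and Abca1 at chr4:53159901-53160145 (minus strand).
Plin2: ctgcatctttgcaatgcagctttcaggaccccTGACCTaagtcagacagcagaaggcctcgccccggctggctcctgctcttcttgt
Elovl1: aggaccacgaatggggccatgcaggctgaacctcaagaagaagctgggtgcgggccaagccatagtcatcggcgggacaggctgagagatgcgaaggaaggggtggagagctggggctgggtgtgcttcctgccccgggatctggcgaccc
Lrp1: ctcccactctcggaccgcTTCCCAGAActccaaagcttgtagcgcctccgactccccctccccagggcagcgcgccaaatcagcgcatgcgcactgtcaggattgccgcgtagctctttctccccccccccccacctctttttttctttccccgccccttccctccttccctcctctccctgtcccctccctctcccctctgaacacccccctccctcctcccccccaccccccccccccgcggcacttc
Abca1: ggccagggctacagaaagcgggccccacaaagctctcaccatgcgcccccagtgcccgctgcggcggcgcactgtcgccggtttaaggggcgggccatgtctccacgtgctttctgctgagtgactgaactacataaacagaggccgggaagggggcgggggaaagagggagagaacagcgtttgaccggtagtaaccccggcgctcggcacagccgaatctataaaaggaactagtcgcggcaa

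The capitals in Plin2 mark a half-site on the opposite strand, at -218 to -213 from the start, and those in Lrp1 mark an interferon gamma activated site at -232 to -224. Plin2 also held an NF-κB match at -123 to -114, within the bases left out here, and the other Elovl1 start in the table held a half-site at -95 to -90. The windows of Apoe, Apod and Abca1 and the Elovl1 window shown held none of the 4 motifs. The most upstream of the 3 Apoe starts lies 773 bases into the transcript that GENCODE gives. The Apoe windows therefore do not reach bases before that transcript. Among 32851 promoter windows of this length, 14.02% held the half-site, 7.02% the interferon gamma activated site, 2.98% the interferon response core and 7.25% the NF-κB consensus. A match describes these letters and not a bound site.

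The depth of the libraries, as read pairs placed on transcripts by Salmon, ran from 27259420 to 43752903. Nlrx1 was lower in every KO library than in every WT library, with 2.47 ± 0.53 against 4.22 ± 0.15 log2 CPM in vehicle and 1.90 ± 0.54 against 4.12 ± 0.05 in LPS + IFNγ (SD, n = 4 each). The 7 astrocyte markers summed to between 4576 and 9564 CPM. Markers of microglia and macrophages, cells that also make Apoe and Lpl, summed to between 0.198 and 2.00 CPM, and 5 of the 10 had fewer than 10 reads in every library, among them Aif1, Cx3cr1 and Tmem119. All 8 oligodendrocyte lineage markers were in the deposited table, with a sum of 1537 to 3274 CPM. The 4 endothelial markers summed to at most 10.3 CPM, the 5 neuronal markers to 15.0 to 87.9 CPM, the 5 mural and fibroblast markers to 9.16 to 40.4 CPM and the 3 ependymal markers to 64.8 to 240 CPM.

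KO litters 2 and 4 stood apart from the other litters. In vehicle, Gfap, an intermediate filament of astrocytes, was at 7.37 and 8.35 log2 CPM in these litters and between 9.51 and 11.3 in the other 6. Mbp, a myelin protein of oligodendrocytes, was at 2.49 and 3.0 and between 5.93 and 7.84 in the others. The sum of the oligodendrocyte lineage markers in vehicle was nevertheless highest in these 2 litters, at 3264 and 3274 CPM against 2704 to 3190 CPM in the other 6. Slc1a3, an astrocyte glutamate transporter, was between 11.0 and 11.3 in all 8 litters. Values of the 9 genes that rest on the KO libraries are also given without these litters, a check that was chosen after the data were seen.

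**Figure D1:**
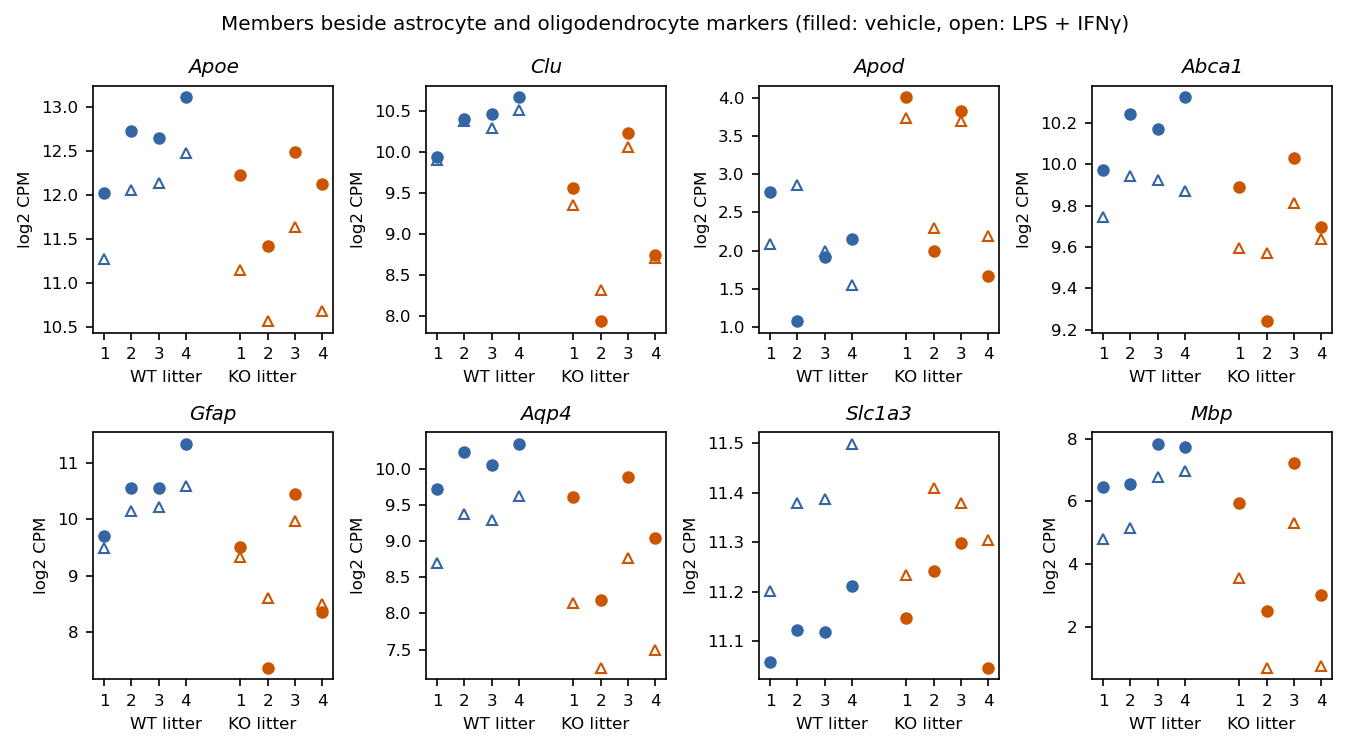
Levels in log2 CPM (y axes) of Apoe, Clu, Apod and Abca1, of the astrocyte genes Gfap, Aqp4 and Slc1a3 and of the oligodendrocyte gene Mbp, with 1 symbol per library (x axes: litters 1 to 4 of each genotype, filled circles vehicle, open triangles LPS + IFNγ, blue WT, orange KO). KO litters 2 and 4 are low in Clu as in Gfap and Mbp, and Slc1a3 stays between 11.0 and 11.5 in every library.

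Levels of different genes can be compared only per transcript length, for which the TPM that Salmon gave were summed over the transcripts of a gene. Apoe had the highest level of the 9 genes, with a median of 7585 TPM over the 16 libraries and a range from 2328 to 16573. In WT vehicle libraries its transcripts made up 1.23% ± 0.35 (SD, n = 4) of all TPM. Clu followed at a median of 1223 TPM (range 292 to 2055), Abca1 at 170 TPM (118 to 265) and Lrp1 at 150 TPM (111 to 182). The ranges of Apoe, Clu and Abca1 did not overlap each other, whereas those of Abca1 and Lrp1 did. Plin2 had 58.5 TPM (30.0 to 80.7) and Elovl1 31.4 TPM (22.03 to 42.97), again with overlapping ranges. The lowest 3 were Abcg1 at 10.2 TPM (8.35 to 14.1), Lpl at 5.81 TPM (3.05 to 13.2) and Apod at 4.36 TPM (2.29 to 17.7), which overlapped. Their values rest on fewer reads, 59 to 588 per library for Apod and 181 to 857 for Lpl, against a median of 135457 for Apoe.

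**Figure D2:**
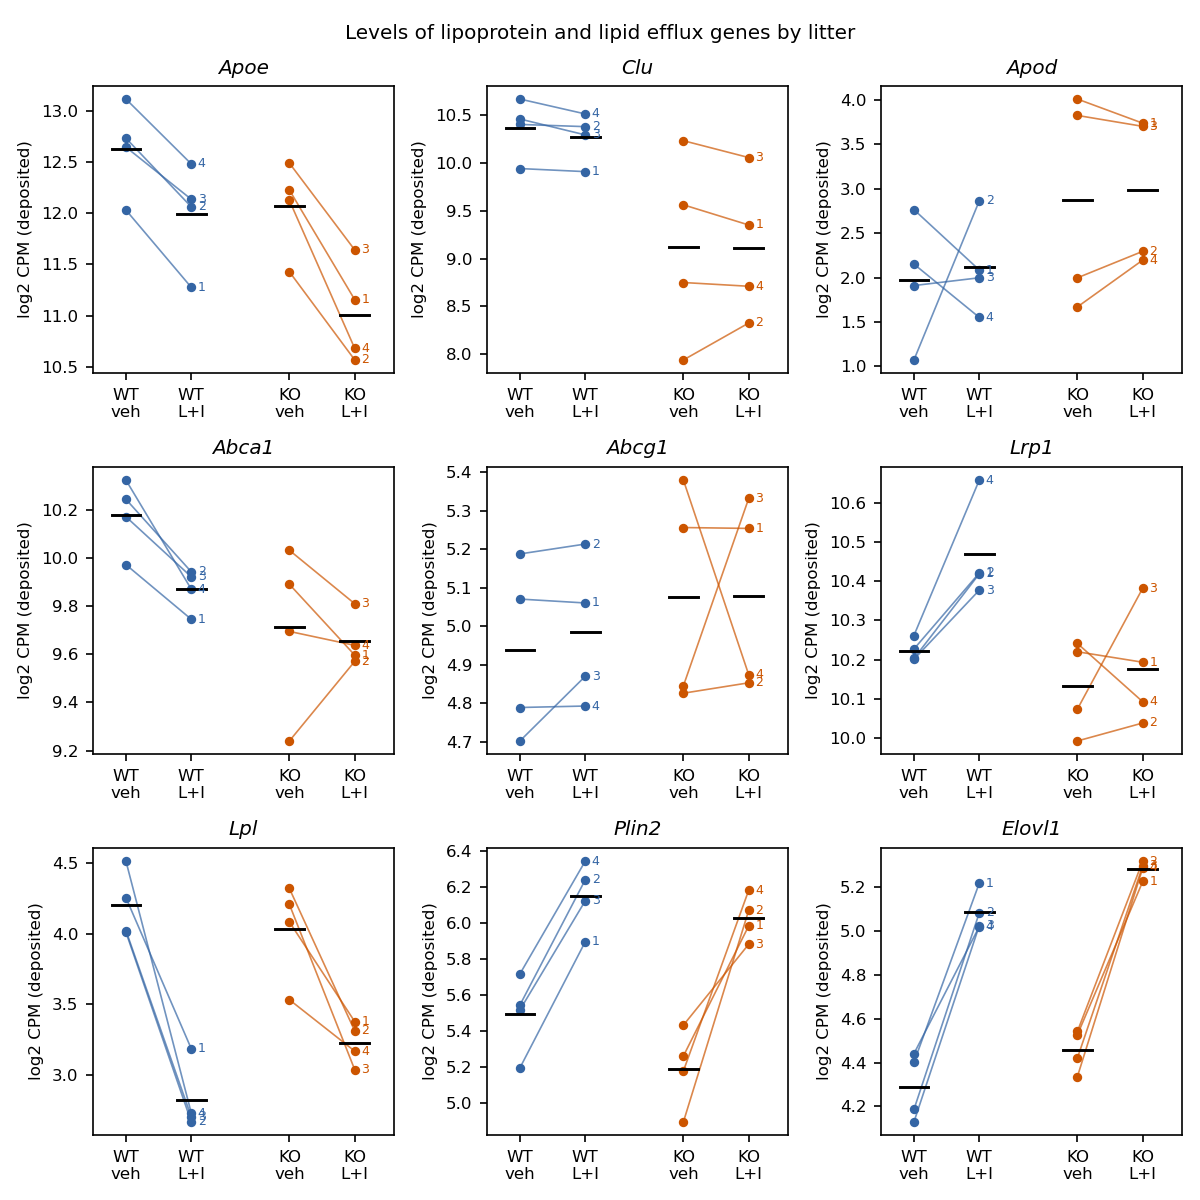
Deposited log2 CPM (y axis, scaled per gene) of the 9 genes in each condition (x axis: WT and KO, veh vehicle, L+I LPS + IFNγ), with 1 point per library, numbers for litters, lines joining the libraries of a litter and black bars for the means of 4 litters. Lpl fell and Plin2 and Elovl1 rose in each of the 8 litters, whereas the lines of Apod and Abcg1 cross.

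After LPS + IFNγ, Lpl, Apoe and Abca1 fell and Elovl1, Plin2 and Lrp1 rose in WT astrocytes, as tested within litters with edgeR's quasi-likelihood method at an adjusted p below 0.05. These were 3 of 9 genes up and 3 of 9 down, against 23.7% and 20.2% of all genes tested, or 43.9% in either direction. In KO astrocytes Apoe and Lpl fell and Plin2 and Elovl1 rose, or 2 of 9 up and 2 of 9 down, against 25.3% and 24.2% of all genes, or 49.4% in either direction. The median log2 fold change of the 9 genes was 0.04 in WT and -0.01 in KO, beside -0.02 and -0.03 over all genes. The calls depend on scaling to TMM factors: with library totals in their place, the median of all genes shifted by -0.16 in both genotypes, and the share of called genes that rose went from 54.1% to 31.1% in WT and from 51.1% to 31.1% in KO. Lpl, Plin2 and Elovl1 in both genotypes and Apoe in KO were called under each of the 17 alternatives run for these fits.

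Among the lipoprotein ligands, Apoe fell in both genotypes. In WT litters 1 to 4 its level was 12.03, 12.73, 12.64 and 13.11 log2 CPM in vehicle and 11.28, 12.06, 12.14 and 12.48 in LPS + IFNγ. KO litters 1 to 4 had 12.23, 11.43, 12.49 and 12.12 in vehicle and 11.15, 10.57, 11.64 and 10.68 in LPS + IFNγ. The level was lower after LPS + IFNγ in each of the 8 litters, while the litters differed among themselves by as much as the response. Apoe had a log2 fold change of -0.65 in WT (SE 0.09, edgeR adjusted p = 0.0002), a level that fell by 36.4%, and -1.07 in KO (SE 0.09, edgeR adjusted p = 5.71e-06), where it fell by 52.4%. In bulk RNA, fewer cells that express a gene and less of its RNA per cell cannot be told apart. The fall in WT was not called without the litter terms, with a log2 fold change of -0.64.

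Clu, whose product is secreted with Apoe and binds lipid and misfolded protein, was not called in either genotype. Its level in WT litters 1 to 4 was 9.94, 10.41, 10.46 and 10.67 log2 CPM in vehicle and 9.91, 10.38, 10.30 and 10.52 in LPS + IFNγ. In KO litters 1 to 4 it was 9.56, 7.94, 10.24 and 8.75 in vehicle and 9.35, 8.32, 10.06 and 8.71 in LPS + IFNγ. The libraries of a litter were within 0.39 of each other, and KO litters 2 and 4 were the lowest in both treatments. The log2 fold change was -0.11 in WT (SE 0.08, edgeR adjusted p = 0.333) and -0.03 in KO (SE 0.08, edgeR adjusted p = 0.819). Without KO litters 2 and 4 that in KO was -0.20 and was called, and in the same fit the WT fold change, at -0.10, was called as well. The KO value was also called without KO litter 2 alone (-0.16), and the WT value with library totals in place of TMM (-0.27).

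Apod, a lipocalin that binds arachidonic acid and progesterone, had the fewest reads of the 9 genes, and its litters had no common direction. WT litters 1 to 4 had 2.76, 1.07, 1.91 and 2.15 log2 CPM in vehicle and 2.08, 2.86, 2.00 and 1.55 in LPS + IFNγ. KO litters 1 to 4 had 4.01, 2.00, 3.82 and 1.67 in vehicle and 3.73, 2.29, 3.70 and 2.20 in LPS + IFNγ. KO litters 1 and 3 were above every WT library in both treatments, while KO litters 2 and 4 were within the WT range. The log2 fold changes were 0.10 in WT (SE 0.35, edgeR adjusted p = 0.843) and 0.08 in KO (SE 0.32, edgeR adjusted p = 0.864), and both turned negative with library totals in place of TMM (-0.06 and -0.09). Without WT litter 2 the WT fold change was -0.41.

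Of the sterol transporters, Abca1, which exports cholesterol and phospholipid to lipid-poor apolipoproteins, fell in WT. Its level in WT litters 1 to 4 was 9.97, 10.24, 10.17 and 10.32 log2 CPM in vehicle and 9.75, 9.94, 9.92 and 9.87 in LPS + IFNγ. In KO litters 1 to 4 it was 9.89, 9.24, 10.03 and 9.70 in vehicle and 9.60, 9.57, 9.81 and 9.64 in LPS + IFNγ. Every WT litter was lower after LPS + IFNγ, and so were 3 of the 4 KO litters, KO litter 2 being the exception with a response of 0.33. Abca1 had a log2 fold change of -0.32 in WT (SE 0.09, edgeR adjusted p = 0.0124), a fall by 19.8%, and -0.08 in KO (SE 0.09, edgeR adjusted p = 0.497). The WT call was lost without WT litter 4 (-0.27) and without the litter terms (-0.32). The KO fold change was called at -0.21 without KO litter 2, at -0.27 without KO litters 2 and 4 and at -0.24 with library totals in place of TMM, and was 0.01 without KO litter 1.

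Abcg1, which passes cholesterol on to lipoproteins that already hold lipid, had log2 fold changes of 0.04 in WT (SE 0.13, edgeR adjusted p = 0.844) and -0.01 in KO (SE 0.13, edgeR adjusted p = 0.938). Its level was between 4.70 and 5.38 log2 CPM in all 16 libraries. The litter responses ran from -0.01 to 0.17 in WT and from -0.51 to 0.49 in KO, so the groups overlapped. The sign of the WT value turned with library totals in place of TMM (-0.13).

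Lrp1, the endocytic receptor for Apoe-containing lipoproteins, rose in WT. In WT litters 1 to 4 it was at 10.20, 10.23, 10.20 and 10.26 log2 CPM in vehicle and 10.42, 10.42, 10.38 and 10.66 in LPS + IFNγ. In KO litters 1 to 4 it was at 10.22, 9.99, 10.07 and 10.24 in vehicle and 10.19, 10.04, 10.38 and 10.09 in LPS + IFNγ. All 4 WT libraries with LPS + IFNγ were above all 4 with vehicle, whereas the KO libraries overlapped and 2 of the 4 KO litters went down. The log2 fold change was 0.24 in WT (SE 0.07, edgeR adjusted p = 0.021), a rise of 18.3%, and 0.02 in KO (SE 0.07, edgeR adjusted p = 0.81). The WT call was lost without WT litter 4 (0.19), and with library totals in place of TMM it was lost at 0.08 while the KO value turned to -0.14.

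Lpl, the lipase that frees fatty acids from triglyceride-rich lipoproteins, had the largest response of the 9 genes in WT. Its level in WT litters 1 to 4 was 4.26, 4.01, 4.02 and 4.52 log2 CPM in vehicle and 3.18, 2.67, 2.70 and 2.73 in LPS + IFNγ. In KO litters 1 to 4 it was 4.08, 4.32, 4.21 and 3.53 in vehicle and 3.38, 3.31, 3.04 and 3.17 in LPS + IFNγ. In both genotypes every LPS + IFNγ library was below every vehicle library. Its log2 fold change was -1.40 in WT (SE 0.14, edgeR adjusted p = 2.66e-05), where the level fell by 62.2%, and -0.83 in KO (SE 0.14, edgeR adjusted p = 0.0007), where it fell by 43.9%.

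Plin2, the perilipin that coats lipid droplets in most cells outside fat tissue, rose in both genotypes. Its level in WT litters 1 to 4 was 5.19, 5.54, 5.52 and 5.72 log2 CPM in vehicle and 5.90, 6.24, 6.12 and 6.35 in LPS + IFNγ. In KO litters 1 to 4 it was 5.26, 4.89, 5.43 and 5.18 in vehicle and 5.99, 6.07, 5.88 and 6.18 in LPS + IFNγ. In each genotype the LPS + IFNγ libraries were all above the vehicle libraries. The log2 fold change was 0.71 in WT (SE 0.10, edgeR adjusted p = 0.000241), or 1.64-fold, and 0.80 in KO (SE 0.10, edgeR adjusted p = 9.03e-05), or 1.75-fold. Without KO litters 2 and 4, which had the KO litter responses of 1.18 and 1.01, the KO fold change was 0.55 and still called. Counts of Plin2 fell short of the deposited values by 0.04 to 0.21 log2 units.

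Elovl1, an elongase of saturated and monounsaturated very long chain fatty acids, rose by nearly the same amount in both genotypes. In WT litters 1 to 4 its level was 4.40, 4.19, 4.13 and 4.44 log2 CPM in vehicle and 5.22, 5.08, 5.02 and 5.02 in LPS + IFNγ. KO litters 1 to 4 had 4.53, 4.54, 4.42 and 4.34 in vehicle and 5.23, 5.32, 5.30 and 5.29 in LPS + IFNγ. No LPS + IFNγ library overlapped a vehicle library. Elovl1 had a log2 fold change of 0.79 in WT (SE 0.08, edgeR adjusted p = 1.53e-05), or 1.73-fold, and 0.81 in KO (SE 0.07, edgeR adjusted p = 9.71e-06), or 1.76-fold.

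The KO log2 fold changes of the genes not yet given without KO litters 2 and 4 were, in that fit, -0.97 for Apoe, -0.95 for Lpl and 0.78 for Elovl1, which were called, and 0.13 for Lrp1, -0.21 for Apod and 0.23 for Abcg1. The last 2 had the opposite sign to their values over all 4 KO litters.

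**Figure D3:**
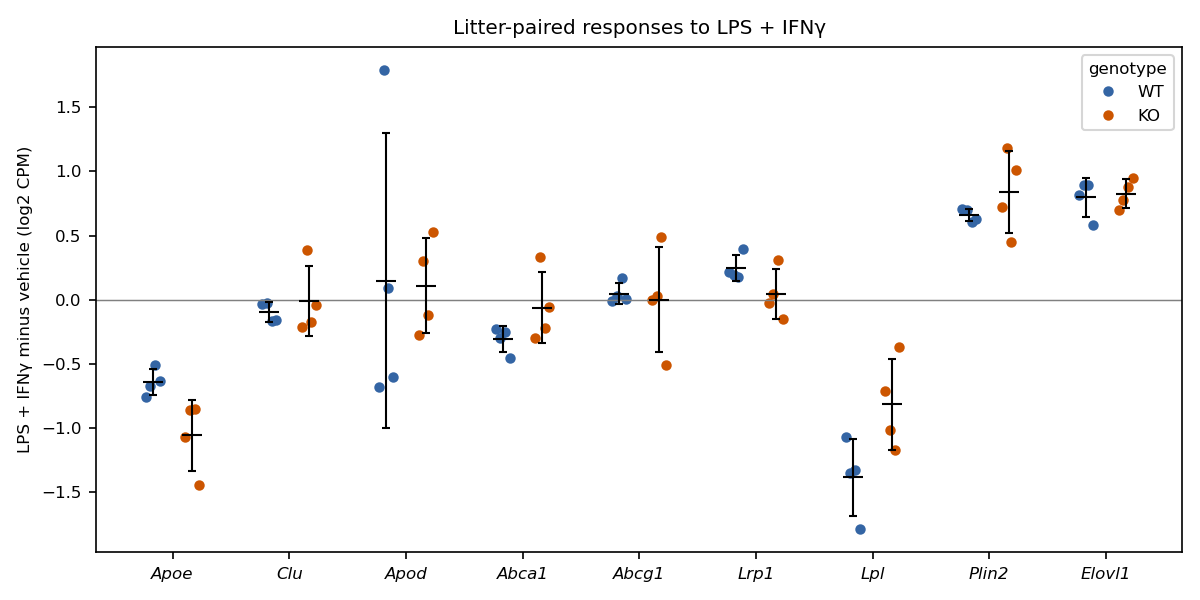
Litter-paired responses (LPS + IFNγ minus vehicle, deposited log2 CPM, y axis) of the 9 genes (x axis), with 1 point per litter, blue for WT and orange for KO, and black bars for the mean ± SD of 4 litters. The genotypes do not overlap for Apoe, where the WT litters lie between -0.75 and -0.51 and the KO litters between -1.44 and -0.85. The signs of Apod and Abcg1 in WT and of Apod and Lrp1 in KO turned with library totals in place of TMM.

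For the difference between the responses, KO minus WT, edgeR called 0 of the 9 genes, as it called 0% of all genes. DESeq2 called 0 of the 9, beside 1.23% of all genes. Both limma on the deposited log2 CPM and limma-voom called 0 of the 9 and 0% of all genes. Apoe and Lpl, 2 of the 9, had an unadjusted p below 0.05, against 15.4% of all genes. Apoe had a difference of -0.42 (SE 0.13, edgeR adjusted p = 0.223), that is, a larger fall in KO. Its responses in litters 1 to 4 were -0.75, -0.67, -0.51 and -0.63 in WT and -1.07, -0.86, -0.85 and -1.44 in KO. All 4 KO litters were below all 4 WT litters (exact permutation test, two-sided, p = 0.0286 before any correction for the 9 genes tested), which is the smallest p that 4 against 4 litters allow, and 8.31% of all genes had responses that did not overlap between the genotypes. Without KO litters 2 and 4 the difference was -0.32.

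Lpl had a difference of 0.57 (SE 0.20, edgeR adjusted p = 0.24), a smaller fall in KO. Its responses in litters 1 to 4 were -1.07, -1.35, -1.32 and -1.79 in WT and -0.71, -1.01, -1.17 and -0.37 in KO. The KO response of litter 3 was within the WT range, so the groups overlapped (exact permutation test, two-sided, p = 0.0571), and without KO litters 2 and 4 the difference was 0.45. The differences of Abca1 (0.24, SE 0.12) and Lrp1 (-0.22, SE 0.10) were also toward a smaller response in KO. They were 0.05 and -0.12 without KO litters 2 and 4. For Plin2 (0.09), Clu (0.08), Abcg1 (-0.05), Elovl1 (0.03) and Apod (-0.02) the difference was below its standard error, and without these litters those of Plin2 (-0.16), Clu (-0.10), Abcg1 (0.19) and Elovl1 (-0.01) had the opposite sign.

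Between genotypes in vehicle, edgeR called 0 of the 9 genes and 0% of all genes, with 2 of the 9 at an unadjusted p below 0.05, Clu and Abca1, against 19.6% of all genes. DESeq2 called 1 of the 9, Abca1, beside 2.88% of all genes, and both limma fits called 0 of the 9 and 1 gene of all. The litters of the genotypes overlapped for each of the 9 genes, whereas 9.45% of all genes had none. Clu was lower in KO by a log2 fold change of -1.04 (SE 0.41, edgeR adjusted p = 0.189), with 3 of the 4 KO litters below all WT litters, and was at -0.47 without KO litters 2 and 4. Abca1 was lower by -0.45 (SE 0.13, edgeR adjusted p = 0.124), also with 3 KO litters below all WT litters, and was at -0.23 without KO litters 2 and 4. Leaving out KO litter 3, which had the highest Clu, Abca1 and Gfap of the KO litters, gave -1.50 for Clu and -0.56 for Abca1, and both were then called, as were 8.04% of all genes in that fit.

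Apoe in vehicle had a log2 fold change of -0.57 between KO and WT (SE 0.29, edgeR adjusted p = 0.291), with 1 KO litter below all WT litters, and -0.33 without KO litters 2 and 4. Apod had 1.13 (SE 0.54, edgeR adjusted p = 0.259), with KO litters 1 and 3 above all WT litters, and 1.82 without KO litters 2 and 4. The mural and fibroblast markers, of cells that also express Apod, summed to 15.98 and 40.4 CPM in the vehicle libraries of KO litters 1 and 3 and to 19.6 to 27.4 CPM in WT. Their part in the level of Apod was not tested. For the other 5 genes the log2 fold change in vehicle was between -0.26 (Plin2) and 0.15 (Elovl1), and without KO litters 2 and 4 between -0.08 (Lrp1, Lpl and Plin2) and 0.17 (Elovl1).

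In LPS + IFNγ, edgeR also called 0 of the 9 genes between genotypes, while it called 5.03% of all genes. Apoe, Lrp1, Clu, Elovl1 and Lpl, 5 of the 9, had an unadjusted p below 0.05, against 28.4% of all genes. DESeq2 called 2 of the 9, Apoe and Lrp1, beside 9.67% of all genes, limma on the deposited log2 CPM called 1, Lrp1, beside 8.8%, and limma-voom called 0 beside 2.41%. The level of Apoe was 11.99 ± 0.51 log2 CPM in WT litters and 11.01 ± 0.49 in KO litters (SD, n = 4 each). This was a log2 fold change of -0.99 (SE 0.30, edgeR adjusted p = 0.0571), or -49.6%. Its KO litters 1, 2 and 4 were below all WT litters. Lrp1 had a log2 fold change of -0.31 (SE 0.09, edgeR adjusted p = 0.0524), with KO litters 1, 2 and 4 again below all WT litters.

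Clu had a log2 fold change of -1.04 in LPS + IFNγ (SE 0.41, edgeR adjusted p = 0.113), as large as in vehicle, and its KO litters 1, 2 and 4 were below all WT litters. The Gfap level in LPS + IFNγ was 9.33, 8.61, 9.98 and 8.50 log2 CPM in KO litters 1 to 4 and 9.48, 10.15, 10.21 and 10.58 in WT litters 1 to 4, so that it was low in the same KO litters as Clu. The mean of Aqp4, the astrocyte water channel, was lower in KO as well (7.91 ± 0.68 against 9.24 ± 0.40). The means of Slc1a2 (7.89 ± 0.59 against 8.84 ± 0.43), Sox9 (8.18 ± 0.34 against 8.59 ± 0.30) and Atp1b2 (8.70 ± 0.27 against 9.04 ± 0.17) were also lower. Those of Slc1a3 (11.33 ± 0.08 against 11.37 ± 0.12) and Aldh1l1 (10.06 ± 0.05 against 10.11 ± 0.09) were closer to each other (SD, n = 4 each). For Gfap and each of these markers the litters of the genotypes overlapped. The summed astrocyte markers were 5126, 4576, 6246 and 4595 CPM in KO litters 1 to 4 and 5402 to 7712 CPM in WT. Without KO litters 2 and 4 the log2 fold changes were -0.64 for Apoe, -0.20 for Lrp1 and -0.55 for Clu. KO litters 2 and 4 were themselves the lowest KO litters in Apoe, Lrp1 and Clu in LPS + IFNγ. Leaving them out therefore does not measure the part of the lower astrocyte markers in these 3 values, which was not tested. Without KO litter 3, the values were -1.25 for Apoe, -0.39 for Lrp1 and -1.46 for Clu, and all 3 were called, as were 20.5% of all genes in that fit. Without WT litter 1, where 8.56% of all genes were called, Apoe was called at -1.18. With a block on the replicate number, the 3 genes were called as well, at -0.98, -0.31 and -1.20, beside 13.7% of all genes. The study used WT and KO pups born on the same day. The labels do not say whether equal numbers mark a shared preparation.

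Elovl1 was the one gene of the 9 whose genotypes did not overlap in LPS + IFNγ, where 13.3% of all genes did not. Its level was 5.09 ± 0.09 log2 CPM in WT litters and 5.28 ± 0.04 in KO litters (SD, n = 4 each, exact permutation test, two-sided, p = 0.0286 before any correction for the 9 genes tested). The log2 fold change was 0.18 (SE 0.08, edgeR adjusted p = 0.168), and 0.17 without KO litters 2 and 4. Lpl was at 0.38 (SE 0.18, edgeR adjusted p = 0.167), with 2 KO litters above all WT litters, and was also at 0.38 without KO litters 2 and 4. The others were at 0.96 for Apod, 0.09 for Abcg1, -0.18 for Plin2 and -0.23 for Abca1, and without these litters at 1.52, 0.29, -0.25 and -0.17.

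**Figure D4:**
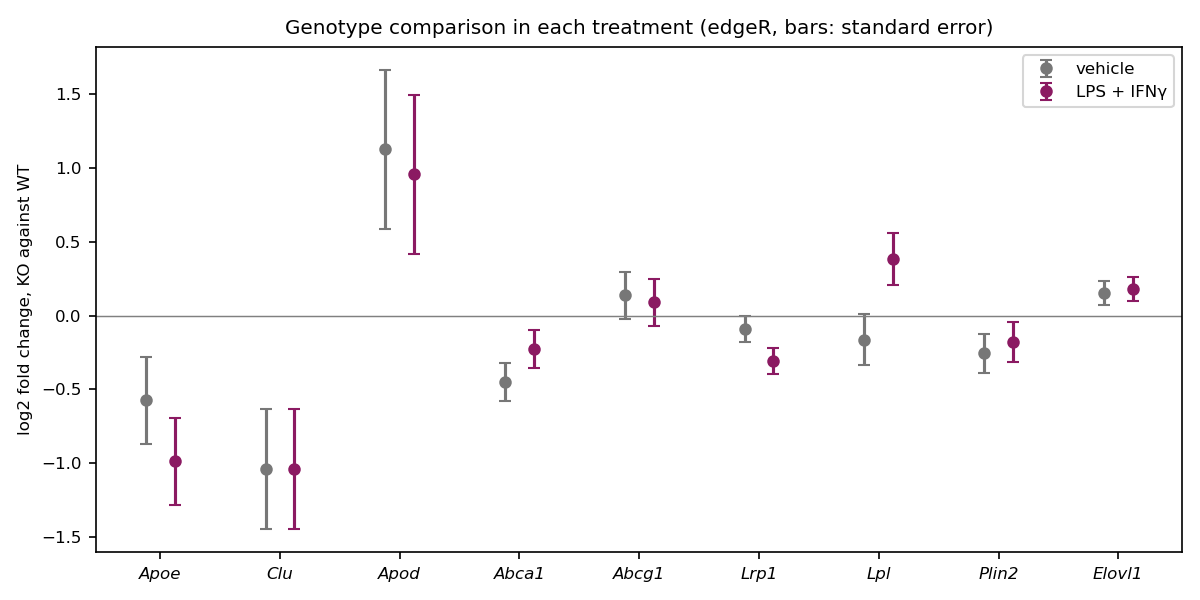
Log2 fold changes of KO against WT (y axis) for the 9 genes (x axis) in vehicle (grey) and LPS + IFNγ (purple), with standard errors from edgeR over 4 litters per group. Clu stands at -1.04 in both treatments and Apod at 1.13 and 0.96 with the widest errors, and 0 of the 9 genes passed an adjusted p below 0.05 in either treatment.

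The other genes of the pathway were taken from 6 lists with 84 genes, of which 78 were tested. In WT 32 of the 78 rose and 15 fell, beside 23.7% and 20.2% of all genes, and in KO 26 rose and 17 fell, beside 25.3% and 24.2%. Their median log2 fold change was 0.15 in WT and 0.03 in KO, beside -0.02 and -0.03 over all genes. These shares and medians are also the background of the 6 lists, whose counts are small. The list with the most genes up held fatty acid elongation and activation, in which 13 of 20 rose and 4 fell in WT and 10 rose and 3 fell in KO. Its median was 0.41 in WT and 0.13 in KO.

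In that list Acsl5, which activates long chain fatty acids, rose by 3.52 in WT (SE 0.16, edgeR adjusted p = 4.03e-08) and 2.99 in KO (SE 0.15, edgeR adjusted p = 1.08e-07). Elovl3, an elongase like Elovl1, rose by 3.76 (SE 0.73) and 2.63 (SE 0.66), on 0 to 55 reads per library. Its counts fell short of the deposited values by 0.03 to 2.42 log2 units. Acsl5 had a median of 1658 reads per library.

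Of 4 tested genes for apolipoproteins and lipid transfer, 3 rose in WT and 2 in KO. Pltp, which moves phospholipid between lipoproteins, rose by 1.01 in WT (SE 0.08) and by 1.05 in KO (SE 0.09), and Lcat, which esterifies cholesterol on them, rose by 0.68 in WT (SE 0.13) and had 0.31 in KO (SE 0.13, edgeR adjusted p = 0.0721). Of 12 genes for cholesterol efflux and sterol handling, 5 rose and 2 fell in WT and 3 rose and 5 fell in KO. Scarb1, the HDL receptor, rose by 0.96 in WT (SE 0.12) and 0.42 in KO (SE 0.12), and the KO call was lost without KO litter 1 (0.36), without KO litter 3 (0.29) and with library totals in place of TMM (0.26). Nceh1, which hydrolyses cholesterol esters, rose by 0.72 in WT and 1.00 in KO (both SE 0.08).

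Of the 10 genes of the liver X receptor pathway, 3 rose and 0 fell in WT, and 2 rose and 0 fell in KO. With library totals in place of TMM it was 1 up and 4 down in WT. Mylip, a ubiquitin ligase, had 0.97 in WT (SE 0.32, edgeR adjusted p = 0.0298), which was not called without WT litter 1 (0.73), 3 (0.92) or 4 (0.81) nor with library totals in place of TMM (0.81), and 0.77 in KO (SE 0.31, edgeR adjusted p = 0.0599). Abca9, a transporter of the ABCA family, had -0.93 in WT (SE 0.63) and 0.03 in KO (SE 0.64), with neither called and with 0 to 139 reads paired per library. Counts of Abca9 fell short of the deposited values by 1.41 to 9.97 log2 units, so its fold changes are not reliable. In the deposited log2 CPM its litter responses ran from -0.07 to 0.23 in WT and from -0.09 to 0.25 in KO. Counts of Mylip fell short by 0.04 to 0.60. Abca1 and Abcg1, the best known targets of these receptors, are described above and did not rise in either genotype.

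Of 14 tested lipoprotein receptors and their regulators, 4 rose and 4 fell in WT and 5 rose and 4 fell in KO. Of 18 tested genes of lipolysis and lipid droplets, 4 rose and 5 fell in each genotype. Angptl4, an inhibitor of lipoprotein lipase, fell by 2.11 on the log2 scale in WT (SE 0.16) and by 2.19 in KO (SE 0.19), in the same direction as Lpl. Plin4, another perilipin, had -2.43 in WT (SE 0.82) and -0.89 in KO (SE 1.13) on at most 211 reads, and the WT call was lost without any 1 WT litter (-2.57 to -2.22).

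**Figure D5:**
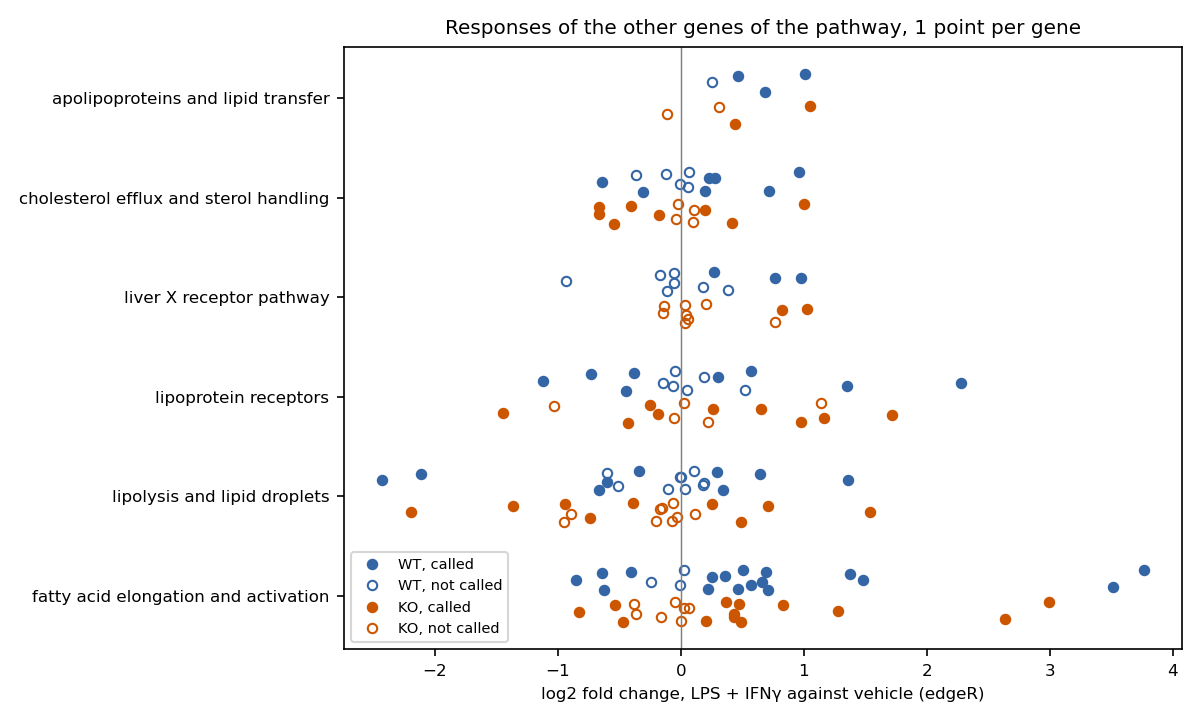
Log2 fold changes after LPS + IFNγ (x axis) of the 78 other genes of the pathway, in 6 lists (y axis), with 1 point per gene, blue for WT and orange for KO and filled where edgeR's adjusted p was below 0.05. Acsl5 and Elovl3 lie farthest to the right and Plin4 (WT) and Angptl4 farthest to the left, and the share of called genes that rose was smaller with library totals in place of TMM.

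For the pathway genes named here, the KO log2 fold changes without KO litters 2 and 4 were 3.23 for Acsl5, 3.80 for Elovl3, 0.98 for Pltp, 0.45 for Lcat, 0.71 for Scarb1, 0.87 for Nceh1, 0.71 for Mylip, -0.39 for Abca9, -2.32 for Angptl4 and -2.03 for Plin4. Of these 10 the sign turned for Abca9 alone.

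Between genotypes, edgeR called 0 of the 78 genes for the difference of the responses, with 21 at an unadjusted p below 0.05, beside 15.4% of all genes. DESeq2 called 2, beside 1.23% of all genes, and limma on the deposited log2 CPM and limma-voom each called 0. In vehicle edgeR called 0 as well, with 30 at an unadjusted p below 0.05, beside 19.6% of all genes. There DESeq2 called 12, beside 2.88%, and both limma fits called 0. In LPS + IFNγ edgeR called 1 up and 5 down in KO, beside 2.65% and 2.38% of all genes, with 25 at an unadjusted p below 0.05, beside 28.4%. DESeq2 called 13 there, beside 9.67% of all genes, limma on the deposited log2 CPM called 9, beside 8.8%, and limma-voom called 2, beside 2.41%. Vldlr, the receptor for VLDL and reelin, had a log2 fold change of 1.60 (SE 0.42). Its deposited level in LPS + IFNγ was 4.74, 4.65, 4.52 and 4.47 log2 CPM in WT litters 1 to 4 and 5.26, 6.78, 4.66 and 6.82 in KO litters 1 to 4, highest in the litters that stood apart. The 5 that were lower were the transporters Abca3 (-0.44) and Abcg4 (-0.54), the cholesterol acyltransferase Soat1 (-0.50), the nuclear receptor coactivator Ncoa1 (-0.34) and the receptor Lrp4 (-0.58). Counts of Vldlr, Lrp4 and Ncoa1 fell short of the deposited values by up to 0.59, 0.42 and 0.23 log2 units. All 6 calls were lost without KO litters 2 and 4, with values of 0.30 for Vldlr, -0.24 for Abca3, -0.29 for Abcg4, -0.36 for Soat1, -0.33 for Ncoa1 and -0.51 for Lrp4. They were also lost without WT litter 2, 3 or 4 and without KO litter 1, 2 or 4, with values of 1.25 to 1.79 for Vldlr, -0.46 to -0.37 for Abca3, -0.64 to -0.43 for Abcg4, -0.53 to -0.39 for Soat1, -0.37 to -0.25 for Ncoa1 and -0.66 to -0.50 for Lrp4. That of Abcg4 was lost without WT litter 1 too (-0.48). Calls over all genes fell with these fits, from 808 to 3 without KO litters 2 and 4, to 1, 2 and 1 without WT litter 2, 3 or 4, and to 220, 13 and 4 without KO litter 1, 2 or 4. In a fit on the LPS + IFNγ libraries alone, 0 of 14965 genes were called, and so none of the 6. The model of the condition means treats the wells of a litter as independent.

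The genes most like each of the 9 over the 16 libraries were found by Pearson's r of the deposited log2 CPM among 12012 genes with a mean of at least 1 log2 CPM. The libraries fall into 2 treatments and share litters, so r describes a shared pattern of treatment and litter. Apoe was most like Gja1, the gap junction protein connexin 43 of astrocytes (r = 0.987), Nebl (0.986) and Ddr1 (0.986). Clu was most like Capn1 (0.979), Oat (0.975) and Oplah (0.974), and Abca1 like Ggta1 (0.982), Slc14a1 (0.975) and Igsf3 (0.963). For the genes that rose, Plin2 was most like Vwa5a (0.980), Slc7a11 (0.977) and Tax1bp1 (0.973), Elovl1 like Trap1 (0.985), Psmd3 (0.985) and Elapor2 (0.983), and Lrp1 like Rb1 (0.950), Plxnc1 (0.915) and Maob (0.902). Lpl was most like Dclk1 (0.975), Pcdhb2 (0.948) and Atmin (0.943). Apod, with Mtch1 (0.756), Haus3 (0.745) and Ankrd54 (0.742), and Abcg1, with Prkra (0.684), Trpt1 (0.662) and Fam98c (0.640), had no gene as close.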

How the data were processed

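The authors quantified transcripts with Salmon 1.7.0 against the GRCm39 transcriptome, as paired-end reads without strand information. The deposited files hold, for each of 129698 transcripts, an expected count without normalization and a TPM. The authors also deposited gene tables from limma-voom 3.58.1, made with tximport, a filter on low counts and TMM library sizes, as CPM (not used here) and as log2 values of these CPM. Conditions and replicate numbers were taken from the labels, and the replicates of a genotype are litters by the study's methods.

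Expected counts were summed over the 106440 transcripts paired with a symbol, which held 96.7% to 97.3% of a library's reads, and rounded to whole numbers. The quasi-likelihood test of edgeR 4.0.16 (R 4.3.3) was run on the genes that filterByExpr kept at a minimum count of 10, scaled by TMM and with offsets for transcript length. P-values were adjusted over all genes after Benjamini and Hochberg, and 0.05 was the threshold. The responses and their difference were fitted with litters as blocks within genotype, after the study's formula. For the genotypes, a model of the 4 condition means was used, with no term for litter. Per-litter values and exact permutation tests, run with scipy 1.17.1, use the deposited log2 CPM. TPM were used only to compare levels between genes. Alternatives used DESeq2 1.42.0 and limma, other scalings and filters, and each litter left out, and the fits were tested on simulated data. DESeq2 was run without the filter on low counts, so its shares of all genes are over 24201 to 24219 genes. The main edgeR fit has 16066 genes and limma on the deposited log2 CPM 16707, so the DESeq2 shares are not directly comparable with theirs. Tables and plots were made with Python 3.11.15.

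Wells with the same number within a genotype were taken to come from the same litter. The study's formula blocks on litter, but the labels give only replicate numbers. The deviations of these paired wells from the condition means had an r across genes of 0.07 to 0.35, beside -0.09 to 0.18 for WT and KO wells of the same number. These ranges overlap, and wells of different numbers within a genotype were not compared, so the pairing itself was not tested. Named genes are the 9 members, Nlrx1, the 2 genes of each pathway list with the largest WT response, any called between genotypes, and the 3 genes most like each member. Some genes under this rule are not reported here. The members and lists were chosen with earlier results of these data known. P-values of the responses, of their difference and of the exact permutation tests measure the spread between litters. Those of the fits between genotypes measure the spread between libraries, with the wells of a litter counted as independent.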

Additional observations from a re-analysis of the deposited data

Results flagged for a closer look

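Of 54 groups of 4 libraries or litter responses checked for a value far from the other 3, 2 had a gap of more than 0.829 of the range of the group, and chance gives about 1 in 20. Both were WT libraries with LPS + IFNγ. For Lrp1 the gap was 0.844 of the range, with WT litter 4 at 10.66 log2 CPM above 10.38 to 10.42 in the other WT litters. For Lpl it was 0.879 of the range, with WT litter 1 at 3.18 log2 CPM above 2.67 to 2.73. The WT rise of Lrp1 was 0.24 with all litters and 0.19, not called, without litter 4. The WT fall of Lpl was called without any 1 litter, at -1.50 to -1.26.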

How the results depend on the processing

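Lpl, Plin2 and Elovl1 in both genotypes and Apoe in KO kept direction and call in all 17 alternatives, Apoe in WT in 16, and Abca1 and Lrp1 in WT in 15. The cause of the changes below was not tested. Members called lower in WT went from 3 to 1 without the litter block, where calls over all genes, in either direction, went from 43.9% to 33.5%. In KO the members called lower after LPS + IFNγ went from 2 to 4 without KO litters 2 and 4, and were 2 to 4 with 1 litter left out. Over all genes 33.7% and 40.8% to 47.5% were called in these KO fits, beside 49.4% in the main fit. Members called lower in KO than in WT in vehicle went from 0 to 1 with DESeq2 and were 0 to 2 with 1 litter left out. Over all genes the shares called there were 0% in the main fit, 2.88% with DESeq2 and 0% to 8.04% with 1 litter left out. In LPS + IFNγ the members called lower in KO than in WT went from 0 to 2 with DESeq2, 1 with limma on the deposited log2 CPM and 3 with the replicate block, and were 0 to 3 with 1 litter left out. Over all genes the shares were 5.03% in the main fit and 9.67%, 8.8% and 13.7% in these 3 fits. They were 0.00614% to 20.5% with 1 litter left out. Whether WT and KO litters of the same number share more than the number is not given in the labels (r of -0.09 to 0.18). The block changed no other member's call between genotypes.

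Values that turned sign were mostly near 0. In WT, with 1 litter left out, Apod ran from -0.41 to 0.39 and Abcg1 from -0.00401 to 0.060. With library totals they were -0.062 and -0.13, and Abca9 was 0.048 with limma on the deposited log2 CPM. In KO, with 1 litter left out, Clu ran from -0.16 to 0.048, Apod from -0.059 to 0.22, Abca1 from -0.21 to 0.00829, Abcg1 from -0.19 to 0.16, Lrp1 from -0.074 to 0.094, Abca9 from -0.080 to 0.25 and Plin4 from -2.13 to 0.44. Counts of Plin4 and Abca9 fell short of the deposited values, as given above. Apod in KO was -0.060 with limma-voom, -0.073 without the block and -0.086 with library totals, where Lrp1 was -0.14 and Abca9 -0.13. Abca9 in KO was -0.041 without length offsets and -0.00289 without the block, and Abcg1 0.00148 with limma on the deposited log2 CPM. Without KO litters 2 and 4 the KO response was -0.21 for Apod, 0.23 for Abcg1 and -0.39 for Abca9. The difference of responses was then -0.10 for Clu, 0.19 for Abcg1, -0.16 for Plin2 and -0.00792 for Elovl1. With 1 litter left out the difference ran from -0.053 to 0.15 for Clu, -0.32 to 0.49 for Apod, -0.22 to 0.12 for Abcg1, -0.025 to 0.22 for Plin2 and -0.041 to 0.073 for Elovl1, and Abcg1 between genotypes in LPS + IFNγ from -0.00721 to 0.17.

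Library totals moved counts in the pathway lists. In WT, cholesterol efflux went from 5 up and 2 down to 2 and 4, the liver X receptor pathway from 3 and 0 to 1 and 4, and lipolysis from 4 up to 2. In KO, cholesterol efflux went from 3 up to 1, the liver X receptor pathway from 0 down to 2, lipolysis from 5 down to 9 and fatty acid elongation from 3 down to 6. Without the block, cholesterol efflux had 2 up and 1 down and receptors 2 up in WT, and cholesterol efflux 1 up in KO. With limma on the deposited log2 CPM, the liver X receptor pathway had 1 down in WT, and cholesterol efflux 5 up and fatty acid elongation 5 down in KO. Cholesterol efflux had 3 down in KO without KO litters 2 and 4. With 1 litter left out, lipolysis had 2 to 3 down in WT without WT litter 1, 2 or 4 and 3 down in KO without KO litter 1, 3 or 4, and the liver X receptor pathway had 1 down in KO without KO litter 2. Over all genes, 48.7% in WT and 53.2% in KO were called with library totals, beside 43.9% and 49.4% in the main fit. These shares were 33.5% and 40% without the block and 46.7% and 52.1% with limma on the deposited log2 CPM. The KO share was 33.7% without KO litters 2 and 4 and 40.8% to 46.4% without 1 KO litter. The WT share was 33.6% to 36.5% without 1 WT litter.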

Other observations

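The transcript estimates give some detail on how the 9 genes were expressed. One transcript of Apoe, NM_009696, held at least 99.3% of its estimated reads in every library, and Abcg1, Lpl and Lrp1 were each represented by 1 transcript. Clu was spread over several transcripts, and the main one, NM_013492, had a share of 83.0% ± 2.2 in vehicle and 84.8% ± 1.8 in LPS + IFNγ in WT libraries (SD, n = 4 each). In KO libraries its share was 75.6% ± 7.4 and 79.7% ± 5.1 (SD, n = 4 each). A second transcript of Plin2, XM_006537557, had a share of 6.70% ± 5.2 in vehicle and 10.7% ± 4.2 in LPS + IFNγ in WT libraries, and of 1.45% ± 2.9 and 12.3% ± 2.5 in KO libraries (SD, n = 4 each). In KO litters 1 and 3 alone the Clu transcript had 78.9% and 83.6% in vehicle and 78.3% and 87.0% in LPS + IFNγ, and the Plin2 transcript 5.79% and 0% in vehicle and 15.7% and 9.78% in LPS + IFNγ. These shares are Salmon's estimates on few distinguishing reads and were not tested.

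The oligodendrocyte gene Mbp was lower after LPS + IFNγ in each of the 8 litters. Mbp went from 7.15 ± 0.74 log2 CPM in vehicle to 5.92 ± 1.1 in LPS + IFNγ in WT, and from 4.66 ± 2.28 to 2.57 ± 2.27 in KO (SD, n = 4 each). Aqp4, the water channel of astrocyte endfeet, went from 10.08 ± 0.27 to 9.24 ± 0.40 in WT and from 9.18 ± 0.75 to 7.91 ± 0.68 in KO (SD, n = 4 each), and was lower in each litter. These 2 levels moved in the same direction as Apoe, and their part in its values was not tested. The other astrocyte markers shared no direction. Aldh1l1 was higher after LPS + IFNγ in each of the 8 litters (litter responses 0.26 to 0.69), as was Slc1a3 (0.08 to 0.29). Sox9 was higher in 4 of 4 WT litters and in 1 of 4 KO litters. Atp1b2 was lower in all 8 (-0.94 to -0.57) and Slc1a2 in 7 of 8. Gfap was lower in all WT litters and in KO litters 1 and 3, and higher in KO litters 2 (1.24) and 4 (0.14).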
